A study of Mus musculus with 18 samples.

Results

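The mitosis and spindle genes described here are 45 genes whose products drive a cell from the end of G2 through chromosome segregation to cytokinesis. They were chosen by name and not by a cut on their values, though with earlier results of these data known. All 45 were found under 1 Ensembl identifier each among the 55401 genes of the deposited tables. RNA was sequenced from mouse cells undergoing chemical reprogramming, in which fibroblasts are turned toward pluripotency by culture medium alone. D0 denotes mouse embryonic fibroblasts (MEF) of strain 129XOG2 from E13.5 embryos. OG2 mice carry a green fluorescent reporter of the pluripotency gene Pou5f1. D2, D4, D6, D8, D10 and D12 denote cells of the same origin labelled as reprogramming intermediates, on day 2, 4, 6, 8, 10 and 12 in reprogramming medium, the composition of which the labels do not give. iPSC denotes induced pluripotent stem cells from the same fibroblasts, and ESC the R1 mESC line, an embryonic stem cell line from a mouse blastocyst. iPSC and ESC were grown on feeder cells, with LIF at 1000 units/mL, the GSK3 inhibitor CHIR99021 at 3 µM and the MEK inhibitor PD0325901 at 0.2 µM, so these libraries can hold feeder RNA. Each of the 9 groups has 2 libraries, 18 in all. The labels do not say that the 2 libraries of a group come from separate cultures, so p-values measure the spread between these libraries, which may be technical.

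Entry into mitosis is driven by the kinase Cdk1 bound to cyclin B and is reinforced by the Polo and Aurora kinases. The spindle then attaches to kinetochores built on the centromere, the spindle checkpoint holds the cell until attachment is complete, and the anaphase-promoting complex destroys cyclin B and securin so that chromatids separate. Many genes of this group are transcribed in G2 and mitosis from promoters with a cell cycle genes homology region (CHR, bound by the MuvB core with the B-Myb protein of Mybl2 or with Foxm1 in dividing cells and as the repressive DREAM complex in resting ones) and CCAAT boxes bound by NF-Y. Their summed transcripts are commonly read as a mark of dividing cells. Pluripotent stem cells are known for rapid division with short gap phases.

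Levels are FPKM, fragments scaled to transcript length and to the library's mapped fragments, as deposited. Fold changes are differences of log2(FPKM + 1), the first group minus the second, with the standard error (SE) of limma, a linear model fitted to the 16439 genes that reached an FPKM of 1 in 2 or more libraries. All 45 mitosis genes passed that filter. For each gene all groups share 1 estimate of the spread. The median difference between replicates in log2(FPKM + 1) was 0.280 in D0 and 0.184 in D4, against 0.0897 (D8) to 0.141 (ESC) in the groups from D6 on. The SE and p-values of comparisons with D0 or D4 can therefore be too small. A gene was called when its adjusted p (Benjamini-Hochberg over all 16439 genes) was under 0.05 and its fold difference on that scale at least 2, and "rose" and "fell" are used of called genes only. Sequencing depth was estimated from the commonest small value of FPKM times length in single-exon genes, its inverse halved to give read pairs. It came to 16.4 to 20.8 M read pairs in 16 libraries. That value was searched only within a narrow preset window, so the window limits how far the estimates could differ. Between 13751 and 23544 genes were above 0 per library. Summed FPKM of 8 fibroblast markers was 717 and 1141 in D0, and that of 6 pluripotency markers 0 and 0.248 in D0 and 4220 and 4474 in iPSC. The D0 libraries also held 8 striated muscle markers at a summed 279 and 350 and 8 myeloid markers at 104 and 115. In D4 those sums were 9.20 to 11.9 and 7.32 to 9.13.

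The 2 libraries labelled D2 stand apart. In the other 16 libraries every value above 0 and under 100 is a whole multiple of its sixth decimal (within 0.02 of it). In D2 17.1% and 17.0% of such values are, while 99.9% and 99.7% are whole in sixths of that unit (within 0.05 of a sixth). Over the same range, the sum of both D2 values is whole at the sixth decimal in 99.8% of 20002 genes. Among all genes, 1986 have a replicate 2 value 0.2 times that of replicate 1 (to 4 decimals), and none is above 0 in replicate 1 alone. In no other pair of libraries was a ratio shared by more than 23 genes, and every other pair had genes above 0 in either library alone. Whole sums set D2 apart only because its single values are mostly not whole. The 2 D2 columns thus hold shared values and are not independent, so calls with D2 are given once, beside those with both columns averaged, and support nothing else. Counts of the other comparisons were repeated without D2 and did not change.

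Across the course the mitosis genes moved through 2 troughs, at D6 and at D12, and reached their highest levels in iPSC and ESC. The median FPKM of the 45 genes stood at 8.50 and 10.9 in D0, then at 12.2 and 15.7 in D2, 15.1 and 17.97 in D4, 6.78 and 5.70 in D6, 23.8 and 23.0 in D8, 22.9 and 23.7 in D10, 10.3 and 10.1 in D12, 42.9 and 43.6 in iPSC and 39.96 and 48.6 in ESC. The group mean was lowest at D6 for 37 genes, at D0 for 5 and at D12 for 3. It was highest in ESC for 25 genes and in iPSC for 15, leaving D0 with 2 (Birc5 and Pttg1), D10 with 2 (Cenpe and Mki67) and D4 with 1 (Bub3). Ranked among all tested genes in the same library, the median mitosis gene stood at percentile 73.7 and 73.5 in D0, 56.0 and 53.1 in D6, 82.4 and 81.8 in D8, 64.0 and 63.8 in D12 and 89.3 and 88.9 in iPSC. Since these are bulk libraries, fewer dividing cells and less of these transcripts per cell cannot be told apart.

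**Figure D1:**
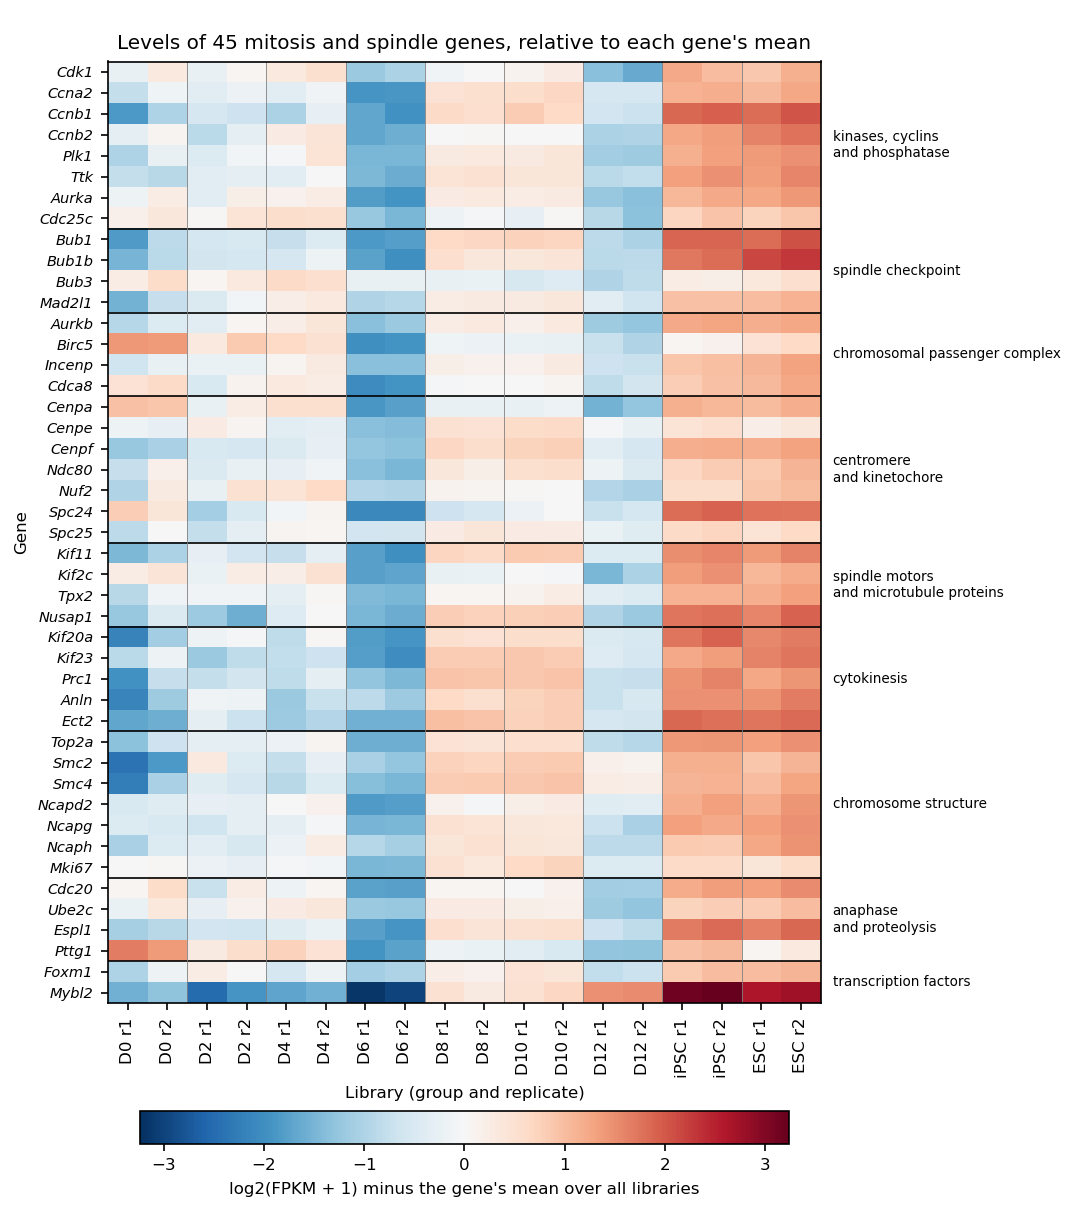
Level of each of the 45 mitosis genes (rows, grouped by role) in each of the 18 libraries (columns, r1 and r2 for the 2 replicates), as log2(FPKM + 1) minus the gene's mean over the 18 libraries. The D6 and D12 columns are blue across nearly all roles, iPSC and ESC are red, and Birc5, Pttg1, Bub3 and Mybl2 follow courses of their own. D0 was low as well, with a median FPKM of 8.50 and 10.9, near the 10.3 and 10.1 of D12.

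Promoter motifs were counted without a test. The choice of the genes did not use them, but CHR and CCAAT are known from genes of this kind. High shares of these motifs are therefore no independent evidence. Promoters were taken from RefSeq on GRCm38.p6, 250 bases before to 50 after the start, for the 36 of 45 genes that the table held. TTTGAA, the CHR core, searched on both strands, was present in 26 of 36 (72.2%), against 20.2% of all 27025 genes in the table and 14.2% of the other tested genes. Matches of the motifs may overlap each other, as they do in the promoter of Cdca8 printed next. CCAAT, searched on both strands, was also present in 26 (72.2%), against 41.1% and 43.3%. Both occurred together in 23 (63.9%), against 7.97% of all genes and 5.76% of the other tested genes. An E2F motif, here TTTGGCG, or with other bases inside TTTCCCG, or else TTTCGCG, on both strands, was present in 6 (16.7%), against 6.38% and 10.8%. A match describes letters and is not evidence of binding.

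The 6 sequences that follow first are those of the most abundant genes with both motifs, printed 5′ to 3′ on the gene's strand with matches in capitals. The CHR core reads TTTGAA on the gene's strand or TTCAAA when it lies on the other one, and the CCAAT box likewise reads CCAAT or, reversed, ATTGG. They are Ube2c (chr2:164769679-164769978, + strand), Cenpa (chr5:30666636-30666935, + strand), Top2a (chr11:99024140-99024439, - strand), Cdc20 (chr4:118437294-118437593, - strand), Cdca8 (chr4:124936868-124937167, - strand) and Bub3 (chr7:131560120-131560419, + strand). Mybl2 (chr2:163054385-163054684, + strand) is added as a member with neither motif in its window, and was chosen after its values were seen.
Ube2c: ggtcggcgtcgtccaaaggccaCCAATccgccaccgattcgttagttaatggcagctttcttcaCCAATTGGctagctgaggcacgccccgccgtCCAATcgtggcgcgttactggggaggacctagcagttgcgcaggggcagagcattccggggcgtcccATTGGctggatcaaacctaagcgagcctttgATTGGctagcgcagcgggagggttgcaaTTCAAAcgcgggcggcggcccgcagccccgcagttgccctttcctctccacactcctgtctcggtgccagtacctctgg
Cenpa: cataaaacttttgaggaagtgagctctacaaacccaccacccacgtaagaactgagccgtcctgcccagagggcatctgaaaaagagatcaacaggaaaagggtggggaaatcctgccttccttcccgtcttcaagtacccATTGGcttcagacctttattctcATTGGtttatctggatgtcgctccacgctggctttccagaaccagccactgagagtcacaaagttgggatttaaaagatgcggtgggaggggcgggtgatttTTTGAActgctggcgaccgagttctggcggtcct
Top2a: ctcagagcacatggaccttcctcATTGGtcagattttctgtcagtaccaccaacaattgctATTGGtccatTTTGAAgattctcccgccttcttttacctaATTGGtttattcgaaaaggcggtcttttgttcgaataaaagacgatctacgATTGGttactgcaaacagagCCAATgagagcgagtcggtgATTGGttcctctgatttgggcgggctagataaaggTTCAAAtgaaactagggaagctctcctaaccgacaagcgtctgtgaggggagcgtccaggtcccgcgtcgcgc
Cdc20: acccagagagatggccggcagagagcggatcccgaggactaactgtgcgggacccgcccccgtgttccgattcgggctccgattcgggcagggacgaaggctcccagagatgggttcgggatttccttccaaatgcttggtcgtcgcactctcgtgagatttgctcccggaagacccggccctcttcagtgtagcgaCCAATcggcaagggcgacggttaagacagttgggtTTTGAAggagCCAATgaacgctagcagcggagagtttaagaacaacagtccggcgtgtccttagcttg
Cdca8: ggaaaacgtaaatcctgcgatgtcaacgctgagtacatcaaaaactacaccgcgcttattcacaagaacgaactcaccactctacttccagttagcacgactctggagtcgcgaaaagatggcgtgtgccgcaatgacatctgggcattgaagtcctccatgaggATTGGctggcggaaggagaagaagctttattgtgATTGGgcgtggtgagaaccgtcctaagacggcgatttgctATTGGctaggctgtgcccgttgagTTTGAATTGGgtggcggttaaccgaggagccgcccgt
Bub3: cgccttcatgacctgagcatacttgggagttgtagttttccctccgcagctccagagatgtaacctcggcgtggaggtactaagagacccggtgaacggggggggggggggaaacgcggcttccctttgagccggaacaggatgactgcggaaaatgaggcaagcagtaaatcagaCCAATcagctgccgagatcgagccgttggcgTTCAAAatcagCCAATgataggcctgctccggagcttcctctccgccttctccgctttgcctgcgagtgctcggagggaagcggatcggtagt
Mybl2: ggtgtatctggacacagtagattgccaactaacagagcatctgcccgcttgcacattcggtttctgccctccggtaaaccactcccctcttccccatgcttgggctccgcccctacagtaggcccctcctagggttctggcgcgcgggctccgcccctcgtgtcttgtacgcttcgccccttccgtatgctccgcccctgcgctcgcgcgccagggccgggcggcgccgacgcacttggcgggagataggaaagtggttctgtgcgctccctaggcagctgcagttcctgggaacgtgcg
In Cdc20 the CHR begins at base -18 from the start and CCAAT boxes at -53 and -8. In Ube2c the CHR begins at -29, and its 6 CCAAT matches lie upstream of it. Bub3 likewise has a CHR, at -43, between CCAAT boxes at -74 and -32, although its level followed a different course.

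Between D0 and D4 3 of the 45 mitosis genes passed both thresholds. Smc2, a core subunit of condensin, rose from 1.23 and 2.28 in D0 to 5.89 and 8.89 in D4 (log2 fold change 1.61, SE 0.239, adjusted p = 0.000134). The checkpoint protein gene Mad2l1 rose from 5.78 and 10.8 to 21.8 and 23.5, and Kif20a, a kinesin of the cytokinetic midzone, from 2.91 and 7.01 to 8.89 and 16.9. The 3 called genes are 6.67% of the 45, and of all tested genes 21.5% were higher and 4.79% lower (26.3% called in either direction). Without the fold threshold 27 of the 45 genes had an adjusted p under 0.05, against 58.6% of all tested genes. The median of the 45 was 0.51 and that of all tested genes 0.37. With median-of-ratios scaling 1 gene was higher and 3 were lower, with the length trend removed 1 and 2, with quantile normalization none was called, and the count was 16 without D0 replicate 2 and 11 without D4 replicate 1, so the call for this step rests on scaling and on single libraries. In the same comparison 7 of 7 tested muscle markers and 6 of 7 myeloid markers were lower, and 5 of 6 endoderm markers higher, and the part of these values was not tested. At D2 against D0, 5 genes were called higher and 2 lower (19.5% of all tested genes were higher and 4.63% lower, 24.1% called), and at D4 against D2 1 gene, Nusap1 (5.66% of all tested genes were higher and 4.48% lower, 10.1% called). At D2 against D0, 25 of the 45 genes had an adjusted p under 0.05 at any fold (53.7% of all tested genes). These calls treat the D2 columns as replicates, which they are not. With both averaged and counted as 1 library the counts were again 7 and 1, the spread then coming from the other groups.

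Birc5 and Pttg1 were already high in fibroblasts. Birc5 encodes survivin, the subunit that brings the chromosomal passenger complex to centromeres, and stood at 209 and 207 in D0, 98.6 and 143 in D2 and 123 and 111 in D4. Pttg1 encodes securin, the inhibitor of separase, and stood at 102 and 84.6, 38.6 and 47.2, and 54.1 and 44.5. D0 was above D2 and D4 in both genes without overlap, but the D4 differences from D0 (-0.83 for Birc5 and -0.91 for Pttg1) did not reach the fold threshold.

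From D4 to D6 the mitosis genes fell together: 36 of 45 fell and none rose. Of all tested genes 6.86% fell and 11.6% rose (18.5% called in either direction). The median log2 fold change was -1.43 for the 45 genes and 0.07 for all tested genes, and every one of the 45 values was below 0, from -2.52 for Birc5 to -0.05 for Anln. In 44 of the 45 genes both D6 libraries lay below both D4 libraries, as they did in 31.5% of all tested genes. Anln was the exception.

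All 8 kinase, cyclin and phosphatase genes fell. Aurka, the kinase of spindle poles, went from 29.3 and 31.9 in D4 to 6.91 and 6.18 in D6 (-2.07, SE 0.171, adjusted p = 1.48e-06). Plk1, which activates the mitotic entry switch, went from 22.9 and 33.2 to 7.94 and 7.97 (-1.68, SE 0.221, adjusted p = 6.17e-05). Ccnb1, the cyclin B1 gene, had the smallest fall of the 8, from 18.1 and 31.0 to 11.0 and 8.99 (-1.18, SE 0.258, adjusted p = 0.00253), while its partner kinase gene Cdk1 went from 23.3 and 26.8 to 7.41 and 8.54. The D4 libraries of Ccnb1 and Plk1 differed from each other by more than the D6 libraries did, yet the groups did not overlap.

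The 4 chromosomal passenger complex genes had the lowest median of the 9 roles, -1.93. Birc5 fell from 123 and 111 to 19.0 and 19.8 (-2.52, SE 0.152, adjusted p = 1.29e-07), and Cdca8, the borealin gene, from 48.8 and 46.7 to 8.78 and 9.54. Incenp, the scaffold of the complex, and Aurkb, its kinase, fell by 1.53 and 1.60 on the log2 scale. All 4 genes of anaphase and proteolysis fell as well. Pttg1 fell by 2.45, from 54.1 and 44.5 to 7.49 and 8.84, Cdc20, the activator of the anaphase-promoting complex, fell by 1.69, Ube2c, its ubiquitin-conjugating enzyme, by 1.54, and Espl1, separase, by 1.53.

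At the centromere and kinetochore 5 of 7 genes fell. Cenpa, the histone H3 variant that marks centromeres, went from 83.8 and 84.0 to 15.0 and 16.4 (-2.35, SE 0.145, adjusted p = 1.58e-07). Spc24, a subunit of the Ndc80 complex, went from 15.7 and 17.97 to 3.21 and 3.15. Its partner Spc25 went from 22.4 and 21.9 to 13.2 and 13.49 and Cenpf from 2.04 and 2.49 to 0.787 and 0.685, and these 2 stayed under the fold threshold at -0.69 and -0.91. The members of the Ndc80 complex therefore did not move by one amount: Ndc80 and Nuf2 fell by 1.22 and 1.50. For Cenpf, whose mean FPKM was 2.27 in D4 and 0.736 in D6, the 1 added to FPKM shrinks the difference. Its value of -0.91 therefore understates its change in FPKM. All 4 spindle motor and microtubule protein genes fell, from Kif2c, a microtubule-depolymerising kinesin (-2.10, from 16.9 and 20.4 to 3.48 and 3.65), to Nusap1 and Tpx2 (both -1.32).

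Chromosome structure genes fell in 5 of 7 cases. Top2a, the topoisomerase that untangles sister chromatids, went from 44.5 and 54.3 to 16.5 and 16.6 (-1.52, SE 0.168, adjusted p = 1.58e-05), Ncapd2 of condensin I fell by 1.88 and Mki67, which coats mitotic chromosomes, by 1.38. The 2 SMC subunits that form the core of both condensins were not called, with Smc2 at 5.89 and 8.89 in D4 and 4.67 and 3.99 in D6, and Smc4 at 9.93 and 14.2 and then 6.94 and 6.28. Cytokinesis had the median nearest to 0 of the 9 roles, -0.81, with 2 of 5 genes called. Kif20a and Kif23, kinesins of the central spindle, fell by 1.47 and 1.17. Prc1, the bundler of midzone microtubules, went from 9.41 and 14.2 to 6.68 and 5.70 and Ect2, the activator of RhoA at the cleavage furrow, from 3.29 and 4.02 to 2.27 and 2.26, both under the threshold. Anln, the contractile ring scaffold anillin, stood at 5.10 and 7.47 in D4 and at 6.78 and 5.18 in D6, with overlapping groups.

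Of the 4 checkpoint genes 3 fell, namely Bub1 (-1.23), Bub1b (-1.50) and Mad2l1 (-1.22). Bub3, which recruits Bub1 and BubR1 to kinetochores, stood at 56.8 and 53.1 in D4 and at 30.5 and 30.4 in D6, a difference of -0.83 (SE 0.135, adjusted p = 0.000317) that is under the fold threshold. Among the 2 transcription factor genes, Mybl2 fell from 7.50 and 8.42 to 2.16 and 2.48. Foxm1 was at 5.61 and 7.61 and then 3.45 and 3.79, without overlap and not called (-0.71, adjusted p = 0.0180).

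**Figure D2:**
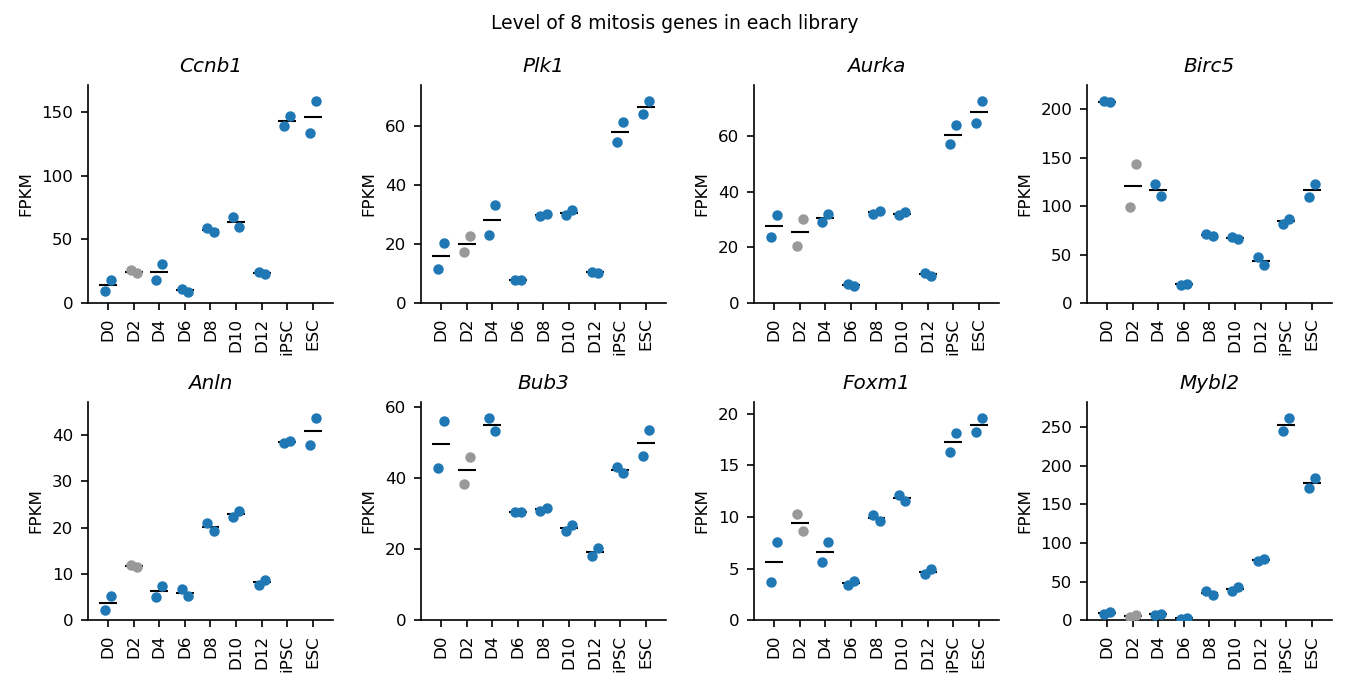
FPKM of 8 mitosis genes in each library, by group (2 points per group, with a line at their mean, and the 2 non-independent D2 columns in grey). Ccnb1, Plk1, Aurka and Birc5 show the low points at D6 and D12, Anln has its D6 points within the range of D4, Bub3 lies between 30.4 and 31.5 at D6 and D8, and Mybl2 climbs from D8 through D12 to iPSC.

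Other values moved in the same step. Mitochondrial transcripts took 0.951% and 1.75% of the length-weighted FPKM in D4 and 8.17% and 5.82% in D6, and with them left out of the scaling 35 of the 45 genes were lower. Fibroblast markers summed to 1520 and 1940 in D4 and to 2320 and 2370 in D6, with 3 of 8 called higher. Their part in the result was not tested. Shorter genes fell more often: of 23 with up to 4919 exonic bases 22 fell, and of 22 longer ones 14, and across the 45 genes the fold change rose with log2 exonic length (Spearman's rho 0.485, Pearson's r 0.483, a description of genes that share libraries). With a pseudocount of 5 in place of 1, which shrinks differences of low genes, 20 genes were lower.

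Compared with fibroblasts, D6 levels were lower for 20 of the 45 genes and higher for none, while 8.79% of all tested genes were lower and 32.8% higher (41.6% either way). Pttg1 (-3.36) and Birc5 (-3.35) had the largest differences, followed by Cenpa (-2.75), Spc24 (-2.67) and Cdca8 (-2.53). Smc2, at 1.23 and 2.28 in D0 and 4.67 and 3.99 in D6, lay the other way (0.98, not called). The median of all tested genes was 0.50 in this comparison, and scalings that move it to -0.05 to 0.20 gave 32 (median-of-ratios), 34 (quantile) and 36 (length trend removed) lower genes and none higher, while a pseudocount of 5 gave 12. In the same comparison 7 of 7 tested muscle markers and 6 of 7 myeloid markers were lower. The other 1 myeloid marker, Cd68, was higher (1.31 and 2.56 in D0, 8.47 and 8.40 in D6), as were 5 of 8 fibroblast and 6 of 6 endoderm markers. The mitochondrial share went from 0.115% and 0.275% in D0 to 8.17% and 5.82% in D6. The part of these values in the result was not tested.

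From D6 to D8, 43 of the 45 mitosis genes rose and none fell, whereas 15.1% of all tested genes rose and 11.3% fell (26.4% in either direction). The median was 1.84, against 0.08 over all tested genes, and in all 45 genes both D8 libraries lay above both D6 libraries, as in 47.0% of all tested genes. Mybl2 had the largest change, from 2.16 and 2.48 to 38.3 and 33.0 (3.46, SE 0.168, adjusted p = 5.11e-09). Cytokinesis genes followed, with a median of 2.34: Kif23 rose by 2.71 (from 2.89 and 2.30 to 22.5 and 22.4), Ect2 by 2.51 (to 18.1 and 17.2), Kif20a by 2.34 and Prc1 by 2.28, and Anln rose by 1.61 to 21.0 and 19.3. Kif11, the motor that pushes spindle poles apart, rose by 2.54 to 15.3 and 14.3, and Ccnb1 by 2.41 to 58.7 and 55.7.

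The 2 genes not called were Spc25 (0.92, adjusted p = 0.00353) and Bub3. Bub3 stood at 30.5 and 30.4 in D6 and at 30.8 and 31.5 in D8, a difference of 0.03 (SE 0.135, adjusted p = 0.873). Bub1, which binds it, rose from 2.64 and 2.82 to 19.7 and 19.8 in the same libraries. In this step all 8 fibroblast markers fell, to sums of 432 in both D8 libraries, and all 6 markers of extraembryonic endoderm rose, from sums of 41.8 and 43.8 to 345 and 347. Of the 6 pluripotency markers 4 rose, from sums of 3.31 and 3.70 to 253 and 255. Their part in the result was not tested. Of the 43 genes, 35 were called under every alternative run, each replicate left out included.

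D8 against D4 compares the days on either side of the trough without the D6 libraries. Of the 45 genes 11 were higher and none lower (22.5% of all tested genes were higher and 12.6% lower, 35.1% together), and the median was 0.48 against 0.20 for all tested genes. Of the 5 cytokinesis genes 4 were called, namely Ect2 (2.01), Anln (1.55), Kif23 (1.54) and Prc1 (1.48). Mybl2 (2.03), Smc4 (1.50), Ccnb1 (1.24), Smc2 (1.24), Bub1 (1.25), Kif11 (1.18) and Cenpf (1.00) made up the rest. Pttg1, Bub3, Cenpa and Birc5 had values of -0.81, -0.80, -0.77 and -0.72 and were not called. The 11 genes are 24.4% of the 45, beside the 22.5% of all tested genes that were higher. Fibroblast markers were lower in 5 of 8 cases, pluripotency markers higher in 5 of 6 and endoderm markers in 6 of 6, and the mitochondrial share was 11.07% and 11.98% in D8. The part of these values was not tested. Removing the length trend gave a count of 6, of which 3 were higher and 3 lower. A pseudocount of 5 gave 7, as did leaving out D4 replicate 1.

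**Figure D3:**
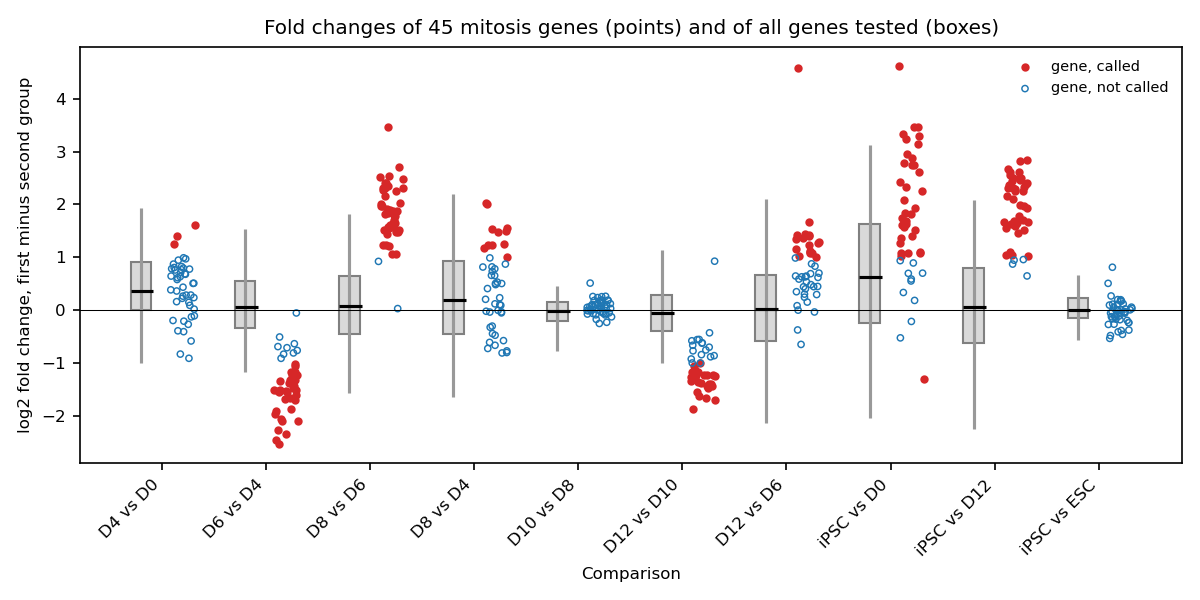
Log2 fold changes of the 45 mitosis genes (points, filled red when called) in 10 comparisons, beside all 16439 tested genes (box for the quartiles, line for the median, whisker from the 5th to the 95th percentile). All 45 points lie below 0 at D6 against D4 and above 0 at D8 against D6 and at iPSC against D12, and 44 lie below 0 at D12 against D10.

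Between D8 and D10 none of the 45 genes was called, against 0.426% of all tested genes higher and 2.43% lower (2.86% called). None had an adjusted p under 0.05 at any fold, against 10.5% of all tested genes. Their differences ranged from -0.25 (Bub3) to 0.51 (Spc24), with a median of 0.05. Plk1, for example, was at 29.5 and 30.1 in D8 and at 29.7 and 31.6 in D10.

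From D10 to D12, 28 of the 45 genes fell and none rose, against 4.68% of all tested genes lower and 6.01% higher (10.7% in either direction). The median was -1.17, and -0.06 over all tested genes. In 44 genes both D12 libraries lay below both D10 libraries, as in 43.4% of all tested genes, and Mybl2 was the exception. The largest fall was that of Nusap1, a microtubule-bundling protein, from 15.2 and 15.4 to 3.85 and 3.13 (-1.86, SE 0.228, adjusted p = 4.86e-05). Cdk1 followed, from 20.2 and 22.6 to 6.65 and 5.25 (-1.69, SE 0.187, adjusted p = 2.06e-05), then Bub1, from 21.2 and 20.2 to 6.23 and 5.48 (-1.66), and Prc1, from 33.2 and 34.2 to 10.3 and 10.1 (-1.63).

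All 5 cytokinesis genes fell, with the lowest median of any role, -1.35. Anln went from 22.2 and 23.7 to 7.61 and 8.78 and Ect2 from 15.3 and 15.8 to 5.61 and 5.35. Of the kinases and cyclins 6 of 8 fell, with Aurka from 31.5 and 32.6 to 10.9 and 9.85, and of the spindle motors and microtubule proteins 3 of 4, Tpx2 being at 24.7 and 26.9 and then 17.8 and 16.6 (-0.56, not called). Of 4 passenger complex genes 1 fell, Aurkb (-1.44), while Birc5 was at 67.7 and 66.5 and then 47.2 and 39.5 (-0.62, not called). Foxm1 fell from 12.2 and 11.6 to 4.46 and 4.94 (-1.17, SE 0.219, adjusted p = 0.00124).

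Mybl2 went against the rest. It stood at 38.2 and 43.1 in D10 and at 76.5 and 79.7 in D12, a difference of 0.93 (SE 0.168, adjusted p = 0.00101) just under the fold threshold and without overlap. It was the most abundant of the 45 genes in both D12 and both iPSC libraries. Mybl2 encodes B-Myb, which joins the MuvB core in S phase, and is itself known as a target of E2F. Its promoter window held no match of the E2F motifs searched, and other forms of the E2F site were not searched.

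In the same step the mitochondrial share of length-weighted FPKM went from 11.7% and 11.1% to 18.6% and 18.2%. With mitochondrial genes left out of the scaling 26 genes were lower and 1 higher. Fibroblast markers summed to 297 and 314 in D10 and to 725 and 741 in D12, with 4 of 8 called higher and 1 lower. The lower one was Thy1, from 19.8 and 22.1 to 6.77 and 7.02. Of the pluripotency markers 4 of 6 were called higher. Their part in the result was not tested. A pseudocount of 5 gave 15 lower genes. Both length classes had 14 lower genes.

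The 2 falls share no library, so they can be set side by side. The 23 genes lower in both steps were 63.9% of the 36 that fell at D6 and 82.1% of the 28 that fell at D12. Among all 45 genes, 62.2% fell at D12, so genes that fell at D6 fell again at nearly the rate of the whole list. The overlap therefore does not show that the same genes recur. The overlap over all tested genes is not given. Bub3, Smc2, Smc4 and Spc25 fell in neither. Across the 45 genes the sizes of the 2 falls had Pearson's r -0.07 and Spearman's rho -0.05, a description over genes that share libraries. The difference between the steps was tested as a contrast, chosen after the values were seen, and 8 of the 45 genes were called, against 27.0% of all tested genes (16.1% higher and 10.9% lower). At D6 7 genes had the lower value: Mybl2 (-2.36, SE 0.237, adjusted p = 8.68e-06), Birc5 (-1.90), Pttg1 (-1.57), Spc24 (-1.54), Cdca8 (-1.51), Ncapd2 (-1.26) and Cenpa (-1.18). Anln had the lower value at D12 (1.33, SE 0.358, adjusted p = 0.00938). The 7 genes are 15.6% of the 45, beside 10.9% of all tested genes on that side, and the 1 gene is 2.22%, beside 16.1%.

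**Figure D4:**
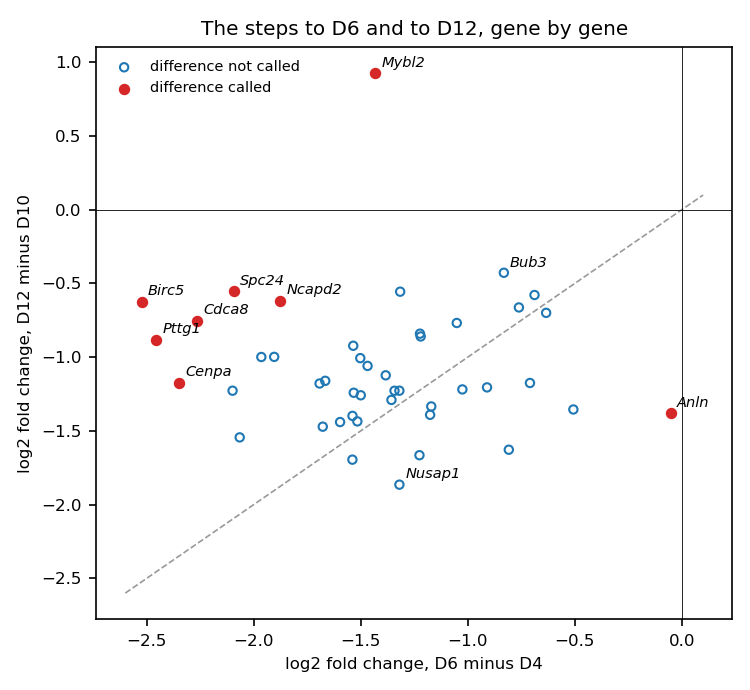
Log2 fold change of each of the 45 mitosis genes from D10 to D12 (vertical) against that from D4 to D6 (horizontal), with the line of equal change dashed and genes whose difference between the steps was called in red. The medians are -1.43 on the horizontal and -1.17 on the vertical axis, Mybl2 is the one gene above 0 on the vertical axis, and Anln lies near 0 on the horizontal axis.

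The second trough was the shallower one. At D12 against D6, 18 genes were higher and none lower (16.6% of all tested genes higher, 15.3% lower, 32.0% together), with a median of 0.69 against 0.03. Mybl2 was higher by 4.57 (SE 0.168, adjusted p = 1.90e-10), Smc4 by 1.66, Spc24 by 1.44, Kif11 by 1.43 and Ncapd2 by 1.42. Ube2c, with 39.9 and 38.7 in D6 and 41.3 and 37.4 in D12, Nuf2 (-0.03) and Aurkb (0.09) were the genes nearest to 0. Bub3, Cdk1 and Nuf2 were the 3 with values below 0. With a pseudocount of 5 the count was 5. Fibroblast markers were lower in 6 of 8 cases, pluripotency and endoderm markers higher in 5 of 6 each, and the mitochondrial share was 8.17% and 5.82% in D6 and 18.6% and 18.2% in D12. What part these values have in the result was not tested.

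In iPSC the mitosis genes were far above D12: 41 of 45 were higher and none lower, against 19.8% of all tested genes higher and 16.7% lower (36.5% in all). The median was 1.99, and 0.06 over all tested genes, and in all 45 genes both iPSC libraries lay above both D12 libraries, as in 46.5% of all tested genes. Nusap1 went from 3.85 and 3.13 to 30.8 and 31.4 (2.84), Bub1 from 6.23 and 5.48 to 47.6 and 47.5 (2.83), Kif2c from 4.46 and 6.47 to 37.9 and 41.4 (2.67) and Ccnb1 from 24.2 and 22.9 to 139 and 147 (2.55, SE 0.258, adjusted p = 2.24e-06). Mybl2 reached 245 and 262. Even Bub3 was called, from 18.1 and 20.2 to 42.9 and 41.4 (1.10, SE 0.135, adjusted p = 1.27e-05). The 4 genes not called were Cenpe (0.65), Smc4 (0.87), Birc5 (0.95) and Spc25 (0.96). Summed fibroblast markers, which feeder cells would also supply, were 84.8 and 90.2 in iPSC and 725 and 741 in D12, and endoderm markers 2.70 and 3.15 against 403 and 424. Their part in the result was not tested.

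Against the starting fibroblasts 34 genes were higher in iPSC and 1 lower, while 40.1% of all tested genes were higher and 13.0% lower (53.1% in all). The median was 1.64, against 0.62 for all tested genes. Mybl2 (4.62), Ect2 (3.47, from 2.00 and 2.204 to 34.3 and 32.6), Kif20a (3.47), Ccnb1 (3.33), Smc2 (3.29) and Bub1 (3.24) led. Birc5 was the one lower gene, at 209 and 207 in D0 and 81.7 and 86.7 in iPSC (-1.29, SE 0.152, adjusted p = 5.80e-06). Pttg1, at 102 and 84.6 and then 62.0 and 67.1, lay on the same side (-0.52, not called), as did Bub3 (-0.21). D0 also differs from iPSC in muscle and myeloid markers, with summed levels of 279 and 350 against 15.5 and 15.5 for muscle and of 104 and 115 against 14.6 and 15.4 for myeloid cells, and the part of this was not tested. Under median-of-ratios scaling 21 genes were higher and 2 lower. Removing the length trend left 19 higher genes beside 2 lower ones. Quantile normalization gave 25 higher and none lower, so Birc5 was not called there.

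Between iPSC and ESC none of the 45 genes was called by limma, against 1.84% of all tested genes higher and 1.20% lower (3.04% called). Differences ranged from -0.53 (Ncaph) to 0.81 (Pttg1), with a median of -0.04. Pttg1, at 62.0 and 67.1 in iPSC and 33.0 and 39.8 in ESC, was the one gene with an adjusted p under 0.05 (0.00303), against 12.6% of all tested genes, and did not reach the fold threshold. Mybl2 was at 245 and 262 in iPSC and 171 and 185 in ESC (0.51, adjusted p = 0.0726). Summed fibroblast markers were 84.8 and 90.2 in iPSC and 150 and 163 in ESC.

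**Figure D5:**
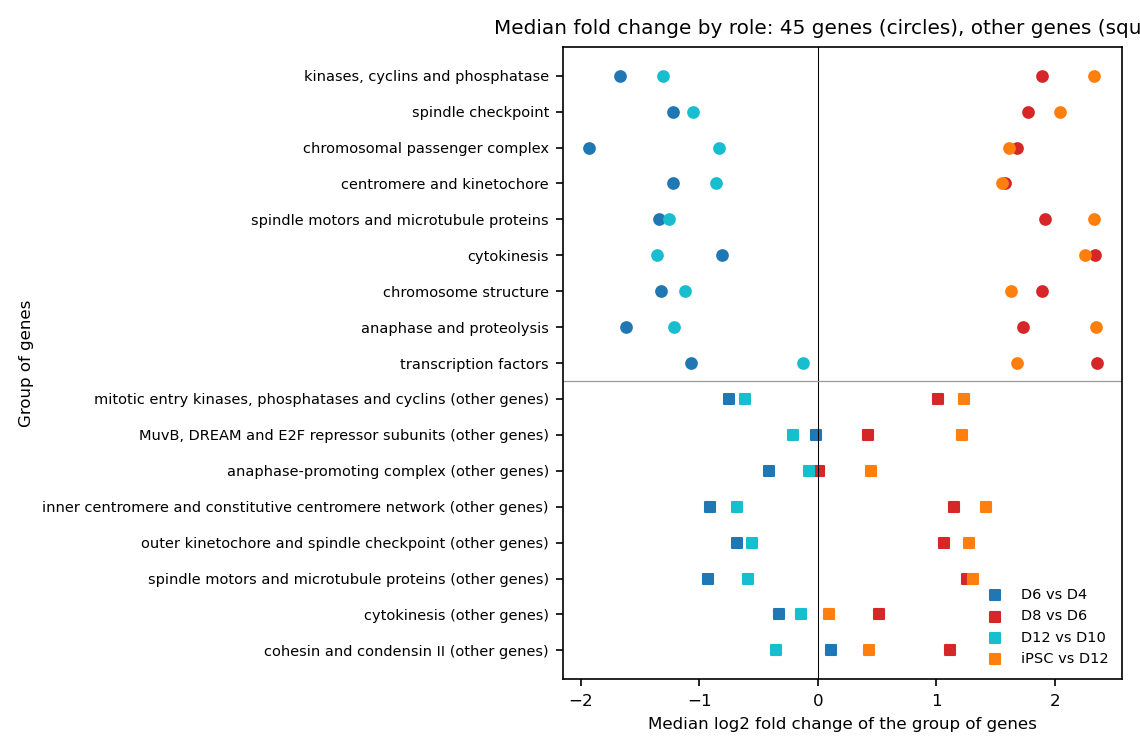
Median log2 fold change of each role among the 45 mitosis genes (circles) and of 8 lists of other mitosis genes (squares), in 4 comparisons shown by colour. The circles are below 0 at D6 and D12 and above 0 at D8 and iPSC for all 9 roles, and the squares of the MuvB and E2F repressor list and of the anaphase-promoting complex list lie near 0 at D6 or D8.

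Beyond the 45, 143 other genes of mitosis from 8 lists were tested. At D6 against D4 3 of them were higher and 41 lower, where 11.6% and 6.86% of all tested genes were. At D8 against D6 68 were higher and 5 lower (15.1% and 11.3% of all tested genes), and at D12 against D10 0 and 20 (6.01% and 4.68%). In iPSC against D12 73 were higher and 2 lower (19.8% and 16.7%), and in iPSC against ESC 1 and 1 (1.84% and 1.20%). The single lists that follow are to be read against the same shares. The inner centromere list had 10 of 21 genes lower at D6, among them Cenpm, from 17.5 and 16.9 to 2.63 and 3.47 (-2.18), and Cenpw (-2.13). The spindle motor and microtubule list had 11 of 28 lower, led by Kif22 (-2.23) and Tacc3 (-1.96). The list of further entry kinases and cyclins had 6 of 19 lower, led by Melk (-1.76) and Pbk (-1.71), and 2 higher.

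Further lists hold the anaphase-promoting complex, the outer kinetochore and checkpoint, cohesin and condensin II, and cytokinesis. Of 17 anaphase-promoting complex genes 6 were lower at D6, 1 was higher and 1 lower at D8, and none was called at D12. Among those lower at D6 were the complex's regulators Ube2s, a ubiquitin-conjugating enzyme (from 355 and 317 to 77.1 and 89.1, -2.00), and Fbxo5, an inhibitor of it (-1.57). Of 16 outer kinetochore and checkpoint genes 5 were lower at D6, led by Pmf1 (-2.00) and Ska2 (-1.45). Of 16 cohesin and condensin II genes 1 was lower at D6, the cohesin protector Cdca5 (-2.04), and of 14 further cytokinesis genes 3, led by Sapcd2 (-1.53) and Racgap1 (-1.24), the partner of Kif23.

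Of the other genes 3 rose at D6, where 36 of the 45 fell. E2f8, an atypical E2F that represses E2F targets, went from 1.26 and 2.28 in D4 to 12.1 and 11.2 in D6 (2.21, SE 0.203, adjusted p = 3.48e-06), and was at 18.6 and 12.2 in the D2 columns. It was the one gene called at D6 among 13 of the MuvB, DREAM and E2F repressor list. Gtse1, a microtubule-binding protein of G2 and mitosis, went from 15.2 and 20.3 to 49.8 and 47.5 (1.42, SE 0.155, adjusted p = 1.42e-05). Nek6, a mitotic kinase, had unlike replicates, 4.90 and 13.2 in D4 and 16.8 and 31.0 in D6 (1.38, SE 0.386, adjusted p = 0.0106).

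Genes with both a CHR and CCAAT in the window and those without the pair are set side by side here. At D6, 17 of 23 with the pair and 12 of 13 without it fell, with medians of -1.50 and -1.23. At D8, 21 and 13 rose, with medians of 1.91 and 1.70, and at D12, 17 and 7 fell, with medians of -1.23 and -1.01. In iPSC against D12, 22 and 11 were higher, with medians of 2.25 and 1.69. These are descriptions, and the difference between the classes was not tested.

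Of the 45 genes, 8 share exon bases with another gene on the opposite strand that is itself at a mean FPKM of at least 1: Ccna2 with Exosc9, Cdca8 with 9930104L06Rik, Nusap1 with Oip5, Kif20a with Cdc23, Prc1 with Rccd1, Ncapg with Lcorl, Cdc20 with Elovl1 and Ube2c with Tnnc2. Whether the libraries kept strand is not given in the sources used here, so in these pairs reads of one gene may be counted in the other. Elovl1 had a mean of 37.7 and Exosc9 of 23.9 and Cdc23 of 21.3 over the libraries.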

How the data were processed

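RNA of 18 libraries was sequenced on an Illumina NovaSeq 6000, per the labels' protocols. Per the submitters' processing notes, the authors used fastp 0.20.1, HISAT2 2.2.1 and StringTie 2.0 with mm10, with no order or annotation release given. The deposited values are FPKM, 1 file per library with 55401 Ensembl genes, and their depth is not stated. Symbols came from GENCODE vM21 on GRCm38 and matched 55141 genes. The 2 libraries of each group were taken as replicates from the titles.

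log2(FPKM + 1) of 16439 genes was fitted with limma 3.58.1 in R 4.3.3, with all 18 libraries in 1 fit, a mean for each group, 9 degrees of freedom left, eBayes without a trend, and two-sided p-values adjusted within each comparison. Of 14 comparisons, 3 were added after the values were seen (D4 against D0, D12 against D6, and the difference between the steps to D6 and D12). The procedure was also run on simulated data with independent replicates and 1 spread per gene in all groups. These data differ from that setting, since D0 replicates differed more and the D2 columns are not independent. The simulation therefore does not test the p-values of comparisons with D0 or D2.

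The 45 genes and all lists were chosen with earlier results of these data known. The text names any of the 45 genes, and of each other list the 2 highest and 2 lowest called genes of D6 against D4 with a mean FPKM of at least 5. Sept2, listed under 2 identifiers, was counted by the first. A promoter counted as holding a motif if any start of the gene did. Alternatives were pseudocounts, filters, scalings, removal of the length trend, group variance weights, fits of fewer libraries, the replicate number as a block and leaving out each library. No columns were left out.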

Additional observations from a re-analysis of the deposited data

Results flagged for a closer look

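In 8 of the 45 genes the step from D4 to D6 differed from the step from D10 to D12 by a test of the difference itself, a limma contrast chosen after the values were seen, in which 27.0% of all tested genes were called. As log2 fold change at D6 minus that at D12, the values were -2.36 for Mybl2, -1.90 for Birc5, -1.57 for Pttg1, -1.54 for Spc24, -1.51 for Cdca8, -1.26 for Ncapd2, -1.18 for Cenpa and 1.33 for Anln. Mybl2 was lower at D6 and, without being called, higher at D12, where the other 7 genes were all lower in value. Of the 8 genes, 4 were called under every alternative run.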

How the results depend on the processing

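The counts of called mitosis genes stayed within 1.5 times the reported ones, in the reported direction, under all alternatives run for D8 against D6 (35 to 43), iPSC against D12 (36 to 43), iPSC against ESC and D10 against D8 (0), and the difference between the 2 steps (6 to 11). With a pseudocount of 5, by construction smaller differences in low genes, the counts were 20 for D6 against D4, 15 for D12 against D10, 5 for D12 against D6, 12 for D6 against D0, 7 for D8 against D4, 4 for D2 against D0, 0 for D4 against D2 and 1 for D4 against D0. With a pseudocount of 0.1, D4 against D0 had 6. Comparisons with D0 moved with scaling, and the cause was not tested. With median-of-ratios scaling the counts were 32 for D6 against D0, 23 for iPSC against D0, 10 for D2 against D0 (3 higher, 7 lower) and 4 for D4 against D0 (1 higher, 3 lower, with a median of -0.0388). With quantile normalization they were 34 for D6 against D0, 25 for iPSC against D0 (none lower), 4 for D2 against D0 (1 higher, 3 lower) and 0 for D4 against D0. With the length trend removed they were 36 for D6 against D0, 21 for iPSC against D0, 9 for D2 against D0 (2 higher, 7 lower), 3 for D4 against D0 (1 higher, 2 lower) and 6 for D8 against D4, and Ndc80 in iPSC against D0 was at -0.0194. Fitted on the libraries compared alone, which leaves 2 residual degrees of freedom, D2 against D0, D4 against D2 and D4 against D0 had 0 each.

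Leaving out each replicate in turn gave 5 to 14 for D2 against D0 (12 without D2 replicate 2, 5 higher and 7 lower), 1 to 2 for D4 against D2 (1 without D4 replicate 2, lower), 2 to 16 for D4 against D0 and 7 to 14 for D8 against D4, the lone library being assumed to vary like the other groups. It gave 34 to 38 for D6 against D4, 42 to 43 for D8 against D6, 27 to 28 for D12 against D10 and 40 to 43 for iPSC against D12. The differences between replicate 1 and replicate 2 had correlations between groups from -0.23 (D4 and D2) to 0.27 (D4 and D0). These values neither establish nor exclude a pairing of same-numbered libraries. With the replicate number as a replicate block the counts were 36 for D6 against D4, 43 for D8 against D6, 28 for D12 against D10, 41 for iPSC against D12 and 35 for iPSC against D0, and no count changed. With crossed pairs, tried after the data were seen where that correlation was under -0.1, D6 against D4 had 36, D6 against D0 20 and D4 against D2 1. Called under every alternative were 20 of the 36 genes at D6 against D4, 35 of 43 at D8 against D6, 15 of 28 at D12 against D10, 36 of 41 in iPSC against D12, 18 of 35 in iPSC against D0, 11 of 20 at D6 against D0, 5 of 18 at D12 against D6, 3 of 11 at D8 against D4, and none of the 7, 3 and 1 at D2 against D0, D4 against D0 and D4 against D2. The pseudocount of 1 weighs most on genes with low FPKM such as Cenpf, at 0.787 and 0.685 in D6.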

Other observations

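The levels of the mitosis genes relative to each other differed between groups, as ratios of FPKM in each library, given as values with no test. Ccnb1 to Cdk1 was 0.628 and 0.787 in D0, 0.776 and 1.15 in D4, 1.48 and 1.05 in D6, and 2.64 to 4.37 in all libraries of D8, D10, D12, iPSC and ESC. Ccnb1 to Ccnb2, the other mitotic B-type cyclin gene, was 0.415 and 0.597 in D0, 0.522 and 0.805 in D4, and 1.50 to 2.31 from D8 on. Bub3 to Bub1 was 16.2 and 8.98 in D0, 11.6 and 10.8 in D6, 1.57 and 1.59 in D8, 2.90 and 3.68 in D12 and 0.872 to 1.03 in iPSC and ESC. Mybl2 to Foxm1 was 0.627 and 0.656 in D6, 3.14 to 3.75 in D8 and D10, 17.1 and 16.1 in D12, 15.0 and 14.4 in iPSC and 9.40 and 9.42 in ESC. Birc5 to Aurkb was 20.3 and 14.0 in D0, 5.12 and 4.05 in D4 and 1.66 to 5.49 in the libraries from D6 on.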
